A study of Mus musculus with 24 samples.

Results

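The genes described here are 39 Polycomb, MLL and histone lysine methylation enzymes and subunits, chosen by name from a list of writers, erasers and partners of histone methylation, out of 56748 genes counted in mouse blood stem and progenitor cells. All 39 were found in the table and all 39 passed the filter on low counts, which left 21964 genes for testing. The study, which concerns the holding of RNA in P-bodies and myeloid leukemia, sequenced RNA of cells sorted from mouse bone marrow. There were 24 libraries in 8 groups of 3, a WT and a KO group for each of 4 sorted populations named HSC (hematopoietic stem cells), MPP1, MPP2 and MPP4 (classes of multipotent progenitors). All groups, the WT ones included, are labelled as treated with tamoxifen, the drug that switches on inducible Cre recombinases. The labels give no deleted gene, strain, age, Cre driver or number of mice, and they do not tie the 3 libraries of a group to separate animals. The p-values therefore measure the spread between libraries, which may be technical.

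Library totals ran from 2540511 to 3807003 counts, and the 39 genes together took 0.613% to 0.840% of them. Levels are given as CPM, a gene's count relative to the library total, scaled by the trimmed mean of M-values. Ddx6, an RNA helicase of P-bodies that general knowledge of the study names as the deleted gene, did not fall in any KO-labelled population. It stood at 67.1, 55.2 and 64 CPM in WT HSC and at 67.6, 93.6 and 67 CPM in KO-labelled HSC (log2 fold change 0.29 ± 0.19 SE, adjusted p = 0.199), and in MPP1 it was called higher as deposited (0.61, adjusted p = 0.0211, and 0.328 after subtraction). A gene count cannot show a deletion of part of a gene. The names MPP2 and MPP4 also went against the markers. The summed level of 6 granulocyte and monocyte progenitor genes was 1760 to 1915 CPM in WT MPP2 and 120 to 131 CPM in WT MPP4, while 7 megakaryocyte and erythroid genes summed to 74.9 to 85.5 CPM in WT MPP2 and to 590 to 634 CPM in WT MPP4. The 6 lymphoid-primed genes summed to 3442 to 3691 CPM in WT MPP2 and to 1376 to 1652 CPM in WT MPP4. The 7 HSC marker genes summed to 4061 to 4179 CPM in WT HSC and to 3870 to 4114 CPM in WT MPP1, and to 8274 to 8502 CPM in KO-labelled HSC. The populations are therefore called by their labels only. Markers of mature B and T cells summed to at most 29.0 CPM and those of stromal and endothelial cells to at most 176 CPM in any library.

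A background of reads moved with genotype. Olfactory and vomeronasal receptor genes, 2003 genes silent in blood cells, took 4535 to 10660 counts per library in the WT groups and 2055 to 6915 per library in the KO-labelled groups. Long silent genes were counted along their whole span: Csmd1, with 19.0 kb of exons in a span of 1643 kb, had 1302 to 1413 counts in WT HSC and 185 to 285 in KO-labelled HSC. A background in proportion to gene span would make up 20.2% to 22.9% of the counts in WT HSC and 5.21% to 5.73% in KO-labelled HSC. Of the counts of the 39 genes this background had a median over the genes of 6.63% in WT HSC and 1.36% in KO-labelled HSC. In WT MPP4 and KO-labelled MPP4 the median was 9.88% and 4.31%. It was largest for the low gene Cbx8, at 31.9% in WT HSC and 83.2% in WT MPP4. Subtraction also changes the total, and so the scale, of every library, and a change after subtraction holds both effects. Most calls of members are therefore given as deposited and again after this background was subtracted. Levels of single libraries, summed levels of markers, count ratios and counts of genes without overlap are given as deposited only. Since introns are counted, levels are compared between groups for 1 gene and not between genes.

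Polycomb complexes keep developmental genes silent. Polycomb repressive complex 2 (PRC2) methylates lysine 27 of histone H3, the CBX subunits of PRC1 read that mark, and the RING subunits of PRC1 add ubiquitin to histone H2A, which the BAP1 and ASXL proteins of the PR-DUB complex remove. MLL and SET1 enzymes, in COMPASS complexes, methylate lysine 4 of histone H3 at promoters and enhancers and keep genes such as the Hox clusters active. Both families are known for setting how long blood stem cells renew themselves, and many of their genes are mutated, translocated or required in myeloid leukemia.

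The members differed between KO-labelled and WT cells mostly upward. A gene was called when its p, from the quasi-likelihood test of edgeR with the Benjamini-Hochberg method applied over all genes tested, was below 0.05. Of the 39 members, 25 were called higher in KO-labelled HSC and 0 lower, against 18.3% of all genes called higher and 24.8% called lower. In MPP1, 13 members were called higher, with 8.71% of all genes higher and 4.9% lower. In MPP2 the number was 3, with 3.73% of all genes higher and 4.17% lower, and in MPP4 it was 20, with 11.4% higher and 6.47% lower. The average over the 4 populations called 28 members higher, with 22.9% of all genes higher and 30.3% lower. By edgeR no member was called lower in any of these 5 comparisons, and DESeq2 called 0 lower in each. At an unadjusted p below 0.05 the member count was 0 lower in HSC, MPP1, MPP4 and the average, and 1 lower in MPP2 (Kdm6b, log2 -0.44, named after its value was seen).

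Most members are abundant, and abundant genes as a whole were called higher. Among the 3821 genes whose mean level reached 64 CPM, 65.1% were called higher in KO-labelled HSC, 35.4% in MPP1, 13.1% in MPP2 and 42.9% in MPP4, beside 64.1%, 33.3%, 7.69% and 51.3% of all 39 members. Of the 39, 27 reached 64 CPM as well. Among these 27 members, 22 were called higher in HSC (81.5%), 13 in MPP1 (48.1%), 2 in MPP2 (7.41%) and 18 in MPP4 (66.7%), shares above those of the abundant genes in HSC, MPP1 and MPP4 and below in MPP2. After background subtraction the 27 gave 7 higher in HSC (25.9%, against 17.7% of the abundant genes), 5 in MPP1 (18.5%, against 10.9%), 0 in MPP2 (against 5.57%) and 5 in MPP4 (18.5%, against 12.8%). The median log2 fold change of these 27 in HSC was 0.66, against 0.53 for the abundant genes and -0.31 for all genes tested, and after subtraction 0.21, against 0.13 and -0.19. These gaps between the members and genes of the same minimum level were not tested.

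After background subtraction 7 members stayed called higher in KO-labelled HSC, where 4.57% of all genes and 17.7% of the abundant ones were called higher and 4.43% of all genes lower. The 7 were Ezh2, Suz12, Asxl2, Kmt2e, Setd1a, Setd1b and Ehmt1, and Kmt2a was called lower. In MPP1 the members called higher were Kmt2a, Kmt2b, Kmt2d, Setd1b and Kdm2a (3.01% of all genes higher) and Ezh2 was called lower (2.94% of all genes lower). In MPP4 they were Kmt2d, Kmt2e, Setd1a, Setd1b and Nsd2 (3.86% of all genes higher and 3.11% lower). In MPP2 edgeR called 0 members, with 2 higher and 3 lower at an unadjusted p below 0.05, where 1.71% of all genes were called higher and 2.98% lower. The average over the 4 populations called 9 members higher and 1 lower after subtraction, with 9.3% and 14.5% of all genes and 26.7% and 18.9% of the abundant ones. The 9 were Asxl2, Kmt2b, Kmt2d, Kmt2e, Wdr5, Setd1a, Setd1b, Nsd1 and Kdm2a, whose average calls held in every alternative tried. DESeq2 was not run on the subtracted values. Scaling on the abundant genes alone, a setting chosen after seeing the data, called 7 members higher and 4 lower in HSC, 6 and 2 in MPP1, 0 higher in MPP2 and 8 higher in MPP4. Over all genes tested, that scaling changed the share of calls that were higher from 42.4% to 11.8% in HSC, from 63.99% to 25.5% in MPP1, from 47.3% to 30.4% in MPP2 and from 63.8% to 20.9% in MPP4. It moved the median of all genes in HSC from -0.31 to -0.84.

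Lineage markers moved with genotype too. In HSC the megakaryocyte and erythroid genes summed to 172 to 189 CPM in WT and 335.5 to 415 in KO-labelled libraries, and the lymphoid-primed genes to 177 to 191 and 97.9 to 128. In MPP1 the megakaryocyte and erythroid sum went from 390 to 394 CPM to 69.6 to 108, the granulocyte and monocyte sum from 147 to 178 to 16.7 to 24.6, and the lymphoid-primed sum from 674 to 704 to 1234 to 1342. In MPP2 the lymphoid-primed sum went from 3442 to 3691 CPM to 9877 to 10393. In MPP4 the granulocyte and monocyte sum went from 120 to 131 CPM to 350 to 400, and the megakaryocyte and erythroid sum from 590 to 634 to 399 to 466. The HSC marker sum was higher in the KO-labelled libraries of all 4 populations, without overlap. The part of these markers in the differences of the members was not tested.

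**Figure D1:**
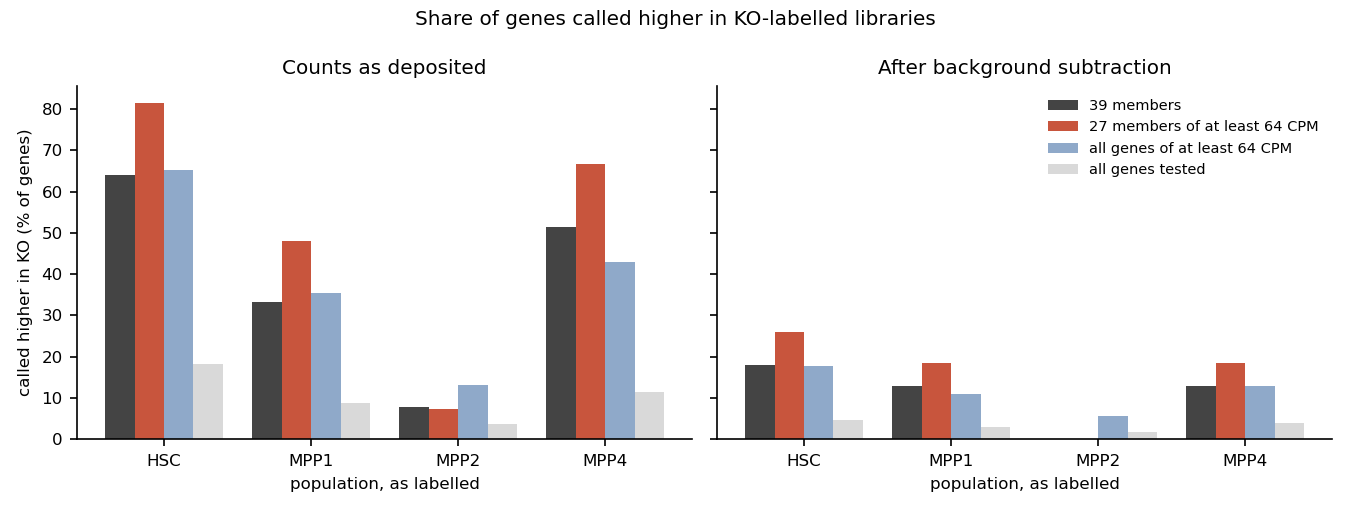
Share of genes called higher in KO-labelled libraries (vertical axis, % of genes, adjusted p below 0.05) in each labelled population, for the 39 members (dark), the 27 members of at least 64 CPM (red), all genes of at least 64 CPM (blue) and all genes tested (grey), from the counts as deposited (left) and after background subtraction (right). In HSC as deposited the 39 members stand at 64.1%, the 27 abundant members at 81.5% and all abundant genes at 65.1%, and after subtraction the same 3 stand at 17.9%, 25.9% and 17.7%.

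**Figure D2:**
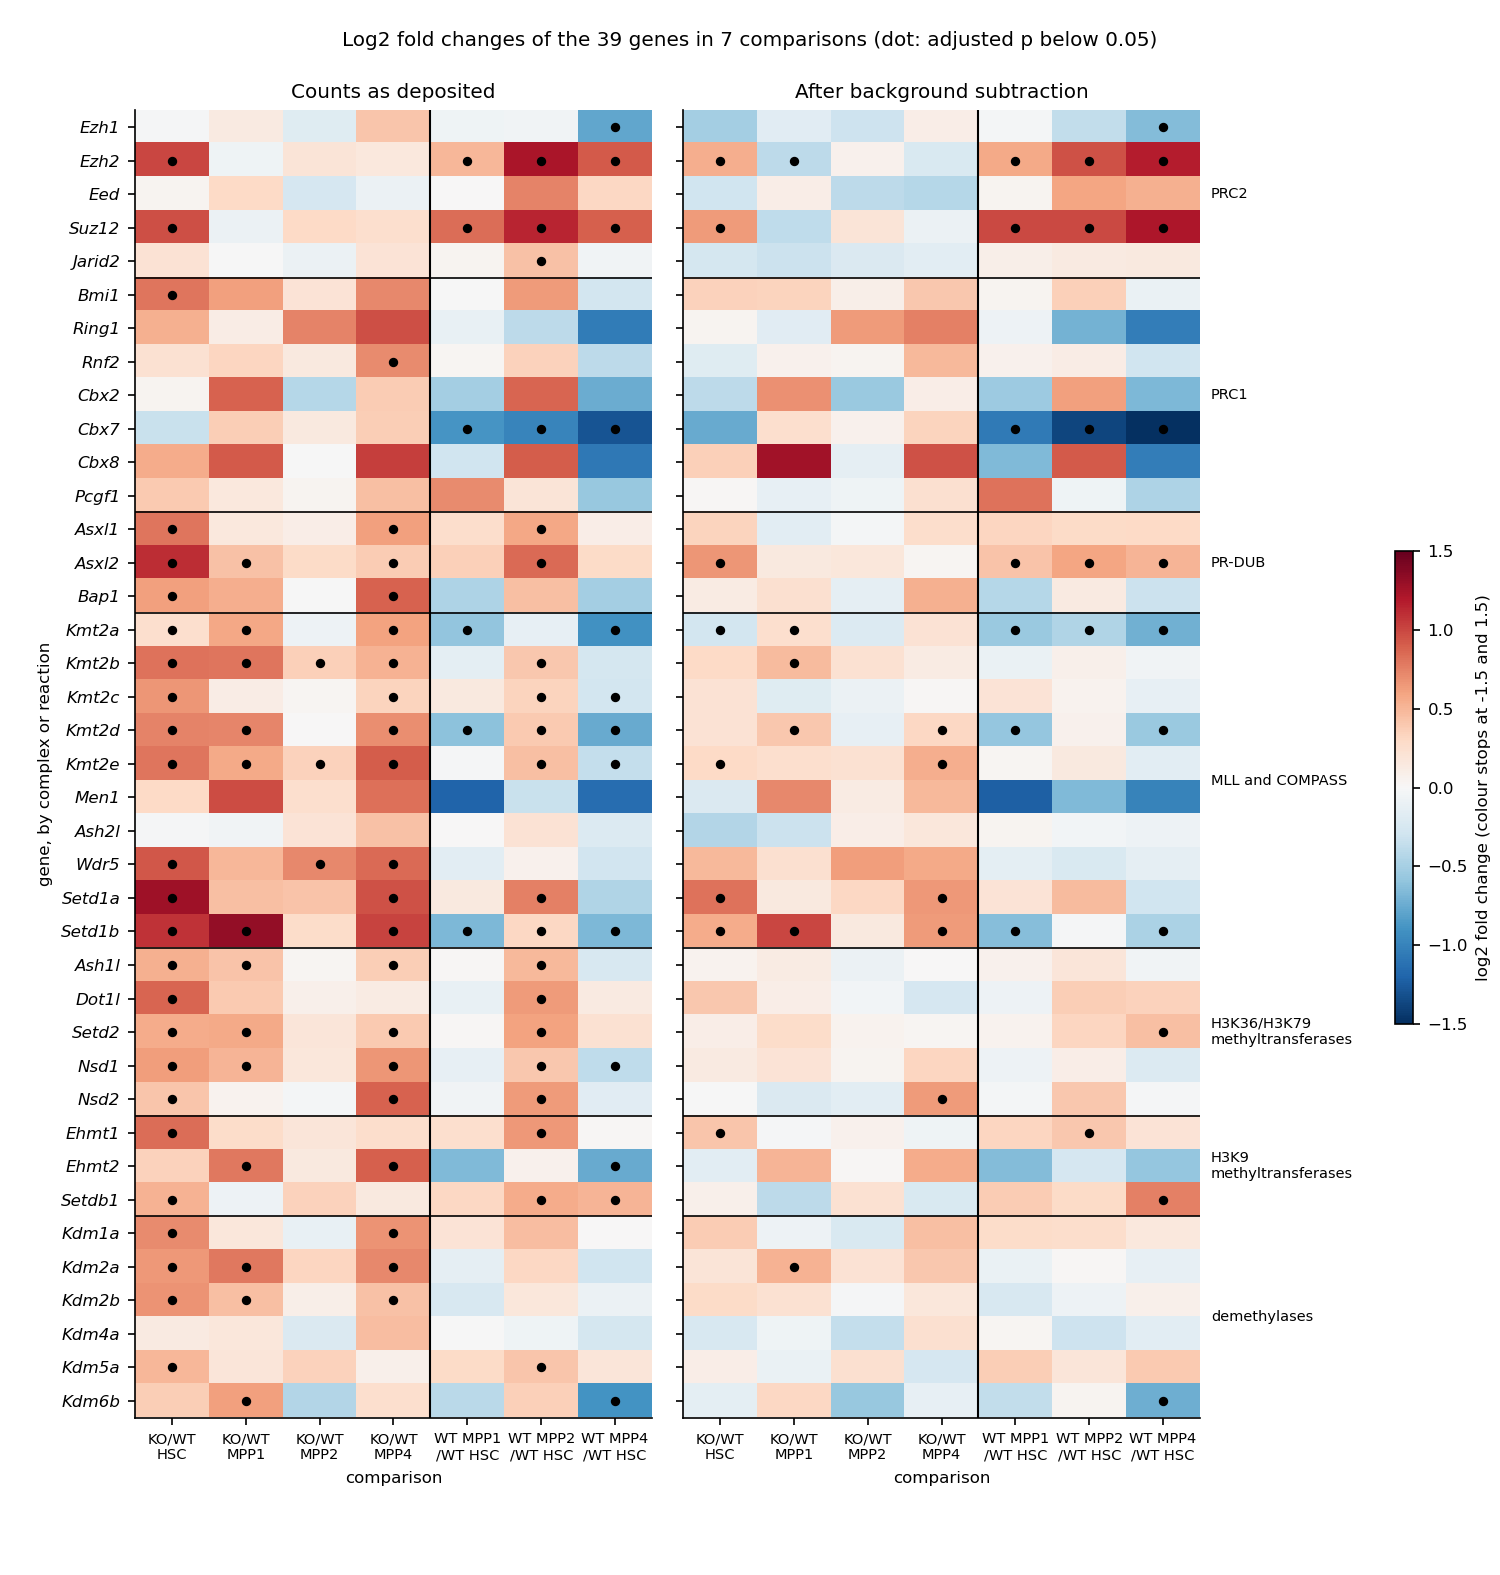
Log2 fold changes of the 39 genes, by complex or reaction, in 4 comparisons of KO-labelled with WT libraries and 3 of WT progenitors with WT HSC, as deposited (left) and after background subtraction (right), with red higher, blue lower and a dot for an adjusted p below 0.05. Called higher in KO-labelled HSC are 25 genes on the left and 7 on the right, where Kmt2a turns from higher to lower.

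Among the PRC2 genes, the catalytic subunit Ezh2 and the scaffold Suz12 were the members higher in KO-labelled HSC, and both were also higher in every WT progenitor population than in WT HSC. Ezh2 in WT libraries stood at 158, 168 and 172 CPM in HSC, 246, 242 and 213 in MPP1, 376, 367 and 426 in MPP2 and 279, 316 and 347 in MPP4. The KO-labelled libraries had it at 300, 350 and 348 CPM in HSC, 222, 236 and 210 in MPP1, 471, 460 and 409 in MPP2 and 382, 347 and 323 in MPP4. WT HSC had the lowest Ezh2 of the 8 groups, the 3 KO-labelled HSC libraries lay above all 3 of them, and the genotypes overlapped in the other 3 populations. The rise in HSC was 2.00-fold (log2 1.00 ± 0.10 SE, adjusted p = 2.44e-10), and 1.00 became 0.54 after subtraction (adjusted p = 0.000932). The log2 differences in MPP1, MPP2 and MPP4 were -0.07, 0.20 and 0.16, none of them called, and after subtraction the MPP1 value of -0.39 was called lower (adjusted p = 0.0171). The KO against WT difference of Ezh2 varied between populations with an adjusted p of 1.59e-06 in edgeR's interaction test, and of 0.000439 after subtraction. Against WT HSC, Ezh2 was 1.41-fold higher in WT MPP1, 2.35-fold in WT MPP2 and 1.89-fold in WT MPP4.

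Suz12, the scaffold that holds PRC2 together, followed a like order. Its levels in WT libraries were 44.6, 41.1 and 33.1 CPM in HSC, 75, 59.6 and 77.6 in MPP1, 79.3, 92.7 and 90.5 in MPP2 and 78.3, 57.5 and 86.4 in MPP4. In KO-labelled libraries they were 68.6, 76.7 and 86.9 CPM in HSC, 58.8, 75.2 and 65.8 in MPP1, 94.7, 96.9 and 132 in MPP2 and 87.8, 84.8 and 91.2 in MPP4. WT HSC was again lowest and lay below every other library of the 24. Suz12 was 1.95-fold higher in KO-labelled HSC than in WT HSC (log2 0.97 ± 0.19 SE, adjusted p = 7.68e-05, and 0.0394 after subtraction), a call that did not hold when scaled on the abundant genes. In the other 3 populations its difference was not called (log2 -0.09, 0.30 and 0.25 in MPP1, MPP2 and MPP4), and its interaction was called as deposited only (adjusted p = 0.0223 and 0.0956). Against WT HSC it was 1.78-fold higher in WT MPP1, 2.21-fold in WT MPP2 and 1.86-fold in WT MPP4, and each call held in every alternative tried.

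Ezh1, the paralog that can replace Ezh2 as the catalytic subunit, took another course. WT libraries held 112, 107 and 104 CPM in HSC, 118, 98.7 and 91.3 in MPP1, 111, 110 and 91.5 in MPP2 and 71.4, 46.8 and 70.4 in MPP4. KO-labelled libraries held 95.8, 123 and 101 CPM in HSC, 90.6, 129 and 119 in MPP1, 90.4, 82.5 and 102 in MPP2 and 78.9, 84.2 and 89.1 in MPP4. The genotypes overlapped in HSC, MPP1 and MPP2, and no KO against WT difference of Ezh1 was called as deposited (-0.02, 0.14, -0.18 and 0.42 on the log2 scale). In HSC the value was -0.51 after subtraction, not called (adjusted p = 0.0612), and -0.55 when scaled on the abundant genes, where it was called lower (adjusted p = 0.00844). WT MPP4 lay below WT HSC without overlap (log2 -0.78 ± 0.17 SE, adjusted p = 0.000956). The count ratio of Ezh2 to Ezh1 in the same library, which no library scaling changes, was 1.40, 1.57 and 1.65 in WT HSC and 3.13, 2.86 and 3.45 in KO-labelled HSC. It was 2.08 to 2.45 in WT MPP1, 3.35 to 4.65 in WT MPP2 and 3.91 to 6.75 in WT MPP4, so the 3 KO-labelled HSC libraries lay above WT MPP1 and overlapped the lower end of WT MPP2. The genotypes did not overlap in HSC (exact permutation test, two-sided, p = 0.1, the smallest that 3 against 3 allows, and 0.156 adjusted over 14 ratio tests). In MPP1, MPP2 and MPP4 the ratios of the 2 genotypes overlapped (exact p = 0.3, 0.2 and 0.4). The pair of genes was chosen after the values were seen.

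Eed, the subunit that binds trimethylated lysine 27, was low and variable. It stood at 10.3, 29.2 and 31.1 CPM in HSC, 26.2, 21.7 and 23 in MPP1, 42.7, 34.6 and 41.1 in MPP2 and 26.9, 29.6 and 31.1 in MPP4 in WT libraries. Its KO-labelled levels were 23.7, 27 and 22.1 CPM in HSC, 30.8, 31.6 and 24.8 in MPP1, 29.9, 35.4 and 33.7 in MPP2 and 26.2, 32.1 and 23.8 in MPP4. No difference of Eed was called in any comparison, and 1 WT HSC library, at 10.3 CPM, lay far below the other two. Jarid2, an accessory subunit that helps bring PRC2 to its sites, ranged from 486 to 801 CPM and was not called in any KO against WT comparison as deposited, though its average over populations was called lower after subtraction (log2 -0.24, adjusted p = 0.000798). Scaled on the abundant genes, Jarid2 was called lower in KO-labelled HSC and MPP1 (-0.31 each, adjusted p = 0.00562 and 0.0176). Jarid2 was called higher in WT MPP2 than in WT HSC (log2 0.44 ± 0.09 SE), a call that subtraction ended (adjusted p = 0.448).

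**Figure D3:**
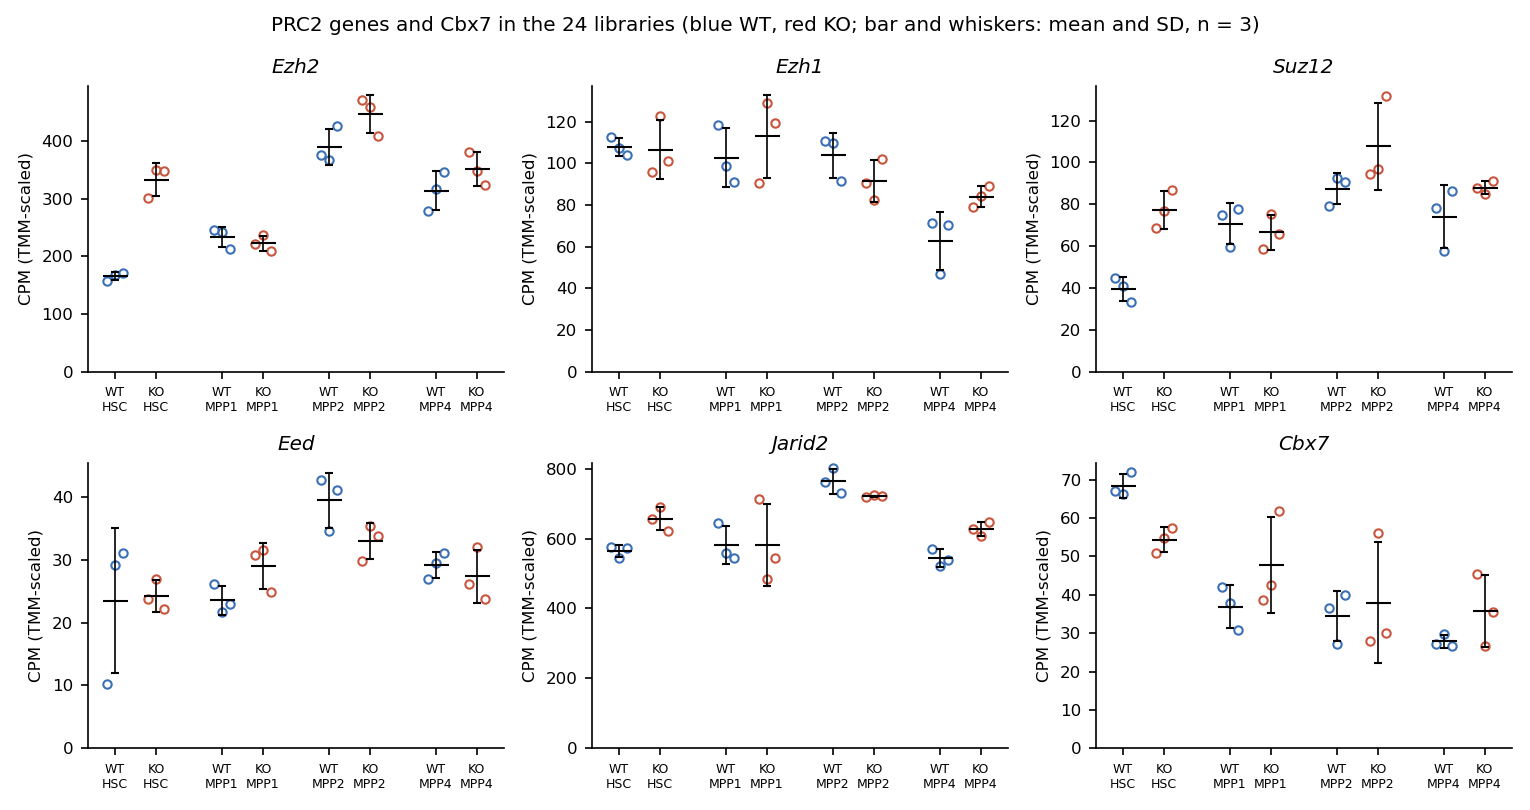
Levels in CPM (vertical axis, from 0) of 5 PRC2 genes and Cbx7 in the 24 libraries, WT in blue and KO-labelled in red, each point 1 library, with the mean and SD of 3. Ezh2 and Suz12 are lowest in WT HSC, at 158 to 172 and 33.1 to 44.6 CPM, and Cbx7 is highest there, at 66.3 to 72.0 CPM.

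Genes of DNA replication and of mitosis also differed between the genotypes, in part in other populations than Ezh2. The summed level of 10 S phase genes was 566 to 671 CPM in WT HSC and 1328 to 1487 in KO-labelled HSC, 803 to 817 in WT MPP1 and 770 to 793 in KO-labelled MPP1, 1459 to 1499 in WT MPP2 and 1505 to 1718 in KO-labelled MPP2, and 946 to 1009 in WT MPP4 and 1302 to 1493 in KO-labelled MPP4. By edgeR, 9 of the 10 were called higher in KO-labelled HSC and 5 in MPP4, and after subtraction 5 and 0, with 1 called lower in MPP1. The sums separated the genotypes in all 4 populations, upward in HSC, MPP2 and MPP4 and downward in MPP1, while Ezh2 separated them in HSC alone. In MPP4 the difference of Ezh2 was not called and changed sign when scaled on the abundant genes (log2 0.16 and -0.21). The summed level of 10 genes of G2 and mitosis went from 619 to 783 CPM in WT HSC to 1766 to 1855 in KO-labelled HSC, and from 1579 to 1715 in WT MPP4 to 2463 to 2703 in KO-labelled MPP4. It went down in MPP1, from 1059 to 1098 CPM to 822 to 900, and in MPP2, from 2198 to 2233 CPM to 1971 to 2080. Of these 10 genes, 6 were called higher in HSC, 3 lower in MPP1, 0 in MPP2 and 4 higher in MPP4, and after subtraction 4 higher, 3 lower, 1 lower and 1 higher. Of all genes and of the abundant ones, 18.3% and 65.1% were called higher in HSC, and 11.4% and 42.9% in MPP4. In MPP1, 4.9% and 9.97% were called lower. After subtraction the shares higher were 4.57% and 17.7% in HSC and 3.86% and 12.8% in MPP4. The shares lower were then 2.94% and 8.84% in MPP1 and 2.98% and 10.4% in MPP2. The part of cell cycling in the Ezh2 and Suz12 results was not tested. In bulk samples a change in the make-up of the sorted cells and a change of RNA per cell cannot be told apart.

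**Figure D4:**
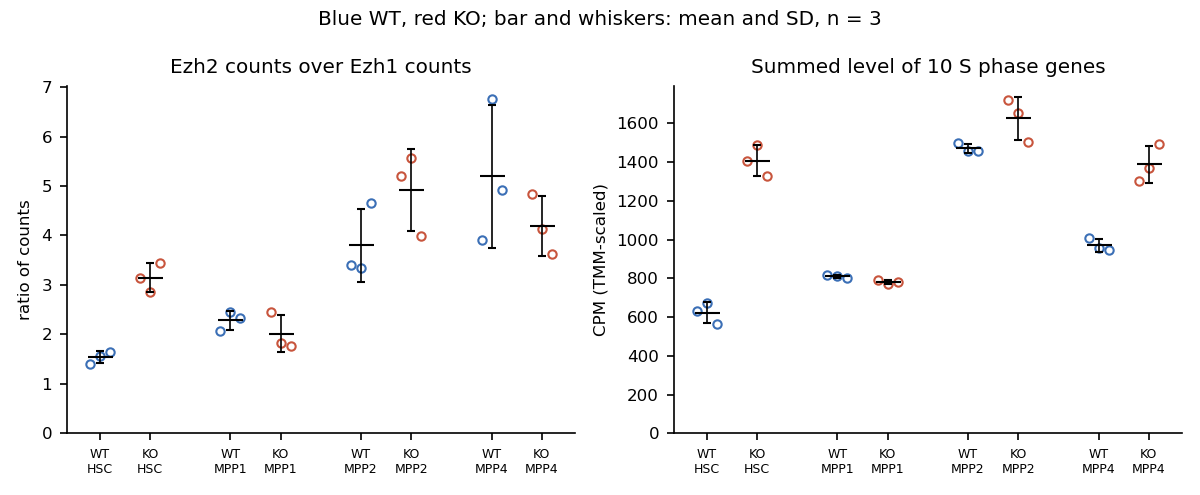
Left, the count of Ezh2 over that of Ezh1 in each library; right, the summed level of 10 S phase genes in CPM; both axes start at 0, WT is blue, KO-labelled red, and bars give the mean and SD of 3 libraries. In HSC both measures separate the genotypes, with ratios of 1.40 to 1.65 against 2.86 to 3.45, while in MPP1, MPP2 and MPP4 the ratios overlap and the S phase sums do not (946 to 1009 against 1302 to 1493 CPM in MPP4).

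Promoter sequences are shown for Ezh2 and Suz12, whose levels were lowest in WT HSC, and for Ezh1 and Cbx7, whose levels were not, so that their letters can be compared. RefSeq promoter sequences of 300 bases, from 250 before to 50 after the annotated start, were on hand for 27 of the 39 members. The first 270 bases of each window are printed 5′ to 3′ on the gene's strand in build GRCm38.p6, from Ezh2 at chr6:47595011-47595280 (minus strand), Suz12 at chr11:79992856-79993125 (plus), Ezh1 at chr11:101226444-101226713 (minus) and Cbx7 at chr15:79932627-79932896 (minus). Capitals mark CCAAT on either strand (ATTGG on the other) and 4 words of the E2F type, TTTCCCGC, TTTGGCGC, TTTCGCGC and TTTGCCGC, which E2F factors of the cell cycle can bind.
Ezh2: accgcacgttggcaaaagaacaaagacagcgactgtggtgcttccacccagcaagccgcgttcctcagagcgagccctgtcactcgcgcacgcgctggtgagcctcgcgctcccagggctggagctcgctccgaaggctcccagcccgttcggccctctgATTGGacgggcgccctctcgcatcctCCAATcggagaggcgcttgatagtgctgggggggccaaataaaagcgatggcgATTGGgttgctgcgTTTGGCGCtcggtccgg
Suz12: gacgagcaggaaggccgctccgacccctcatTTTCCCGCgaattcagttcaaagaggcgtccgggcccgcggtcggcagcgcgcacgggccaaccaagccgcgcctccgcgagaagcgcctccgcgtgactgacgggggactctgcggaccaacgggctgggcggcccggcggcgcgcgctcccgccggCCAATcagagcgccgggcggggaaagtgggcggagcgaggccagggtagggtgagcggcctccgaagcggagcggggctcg
Ezh1: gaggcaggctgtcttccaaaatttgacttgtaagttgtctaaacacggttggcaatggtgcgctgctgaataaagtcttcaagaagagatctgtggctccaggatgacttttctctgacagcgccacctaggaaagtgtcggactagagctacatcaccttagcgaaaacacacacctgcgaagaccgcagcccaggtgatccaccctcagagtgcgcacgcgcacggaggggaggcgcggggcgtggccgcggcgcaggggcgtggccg
Cbx7: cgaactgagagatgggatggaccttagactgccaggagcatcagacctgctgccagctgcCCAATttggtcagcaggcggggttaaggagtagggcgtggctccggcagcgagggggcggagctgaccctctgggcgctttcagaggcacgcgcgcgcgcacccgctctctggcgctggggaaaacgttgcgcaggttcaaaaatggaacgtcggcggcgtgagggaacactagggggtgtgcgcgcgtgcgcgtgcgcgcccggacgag
An E2F-type word stood in 2 of the 27 matched members, Ezh2 (TTTGGCGC, first base 4 of the transcript) and Suz12 (TTTCCCGC, 219 bases before the start), and in 2.26% of 32851 promoters, searched on both strands. CCAAT stood in 11 of the 27 and in 37.4% of all promoters. Of the further words searched on both strands, CACGTG stood in 5 members (7.15% of all promoters), CCGGAA in 8 (14.9%) and TGACGTCA in 1 (1.79%), and the BANP motif stood in 0 members (0.466%). The words were chosen after the values of the genes were known, and a match is a description of letters, not of a bound factor.

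Among the 7 PRC1 genes, Cbx7, whose product reads the PRC2 mark and is known as the CBX protein of self-renewing stem cells, ran the opposite way to Ezh2 across the WT populations. It stood at 67.1, 66.3 and 72 CPM in HSC, 42, 37.9 and 30.8 in MPP1, 36.5, 27.1 and 39.9 in MPP2 and 27.2, 29.8 and 26.6 in MPP4 in WT libraries, so WT HSC lay above all 9 WT progenitor libraries. KO-labelled libraries showed 50.9, 54.7 and 57.5 CPM in HSC, 38.8, 42.5 and 62 in MPP1, 27.9, 56 and 30 in MPP2 and 45.4, 26.7 and 35.6 in MPP4. Against WT HSC it fell by 0.89 in WT MPP1, 0.99 in WT MPP2 and 1.29 in WT MPP4 on the log2 scale (SE 0.26 each, adjusted p = 0.0389, 0.00439 and 0.000365), and the calls in MPP2 and MPP4 held in every alternative tried. Leaving out any 1 of the 6 libraries compared ended the MPP1 call, with an adjusted p of 0.0641 to 0.238. The 3 KO-labelled HSC libraries lay below the 3 WT ones, but that difference was not called as deposited (log2 -0.33 ± 0.26 SE, adjusted p = 0.296) or after subtraction (-0.75, adjusted p = 0.116). Scaled on the abundant genes, Cbx7 was called lower in KO-labelled HSC (-0.86, adjusted p = 0.00748).

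Bmi1, a partner of the RING ubiquitin ligases that stem cells need for self-renewal, was called higher in KO-labelled HSC, where it stood at 44.3, 40.2 and 42 CPM against 26.9, 19.9 and 25.4 CPM in WT HSC (log2 0.81 ± 0.28 SE, adjusted p = 0.0192). The call was lost after subtraction (adjusted p = 0.464) and without WT HSC replicate 2 (0.0885) or KO HSC replicate 1 (0.0555). Rnf2, the main RING ligase, was called higher in KO-labelled MPP4, at 44.9, 97.7 and 72.7 CPM against 37.1, 43.2 and 51.6 CPM, with overlapping libraries (adjusted p = 0.028, and 0.315 after subtraction). It was not called without WT MPP4 replicate 1 or 2 or KO MPP4 replicate 2 or 3 (adjusted p of 0.0591 to 0.25). The other ligase Ring1, the readers Cbx2 and Cbx8 and the PRC1 subunit Pcgf1 were low, with means over the 24 libraries of 8.39, 16.2, 2.82 and 6.02 CPM, and were called in no comparison.

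All 3 PR-DUB genes were called higher in KO-labelled HSC as deposited, where 18.3% of all genes and 65.1% of the abundant ones were. Asxl2 alone stayed called after subtraction, where 4.57% of all genes and 17.7% of the abundant ones were called higher. Asxl2, a cofactor of the H2A deubiquitinase, stood in WT libraries at 134, 152 and 191 CPM in HSC, 198, 220 and 190 in MPP1, 284, 284 and 288 in MPP2 and 172, 190 and 218 in MPP4. In KO-labelled libraries it stood at 343, 346 and 333 CPM in HSC, 258, 289 and 279 in MPP1, 344, 341 and 359 in MPP2 and 232, 223 and 298 in MPP4. The genotypes did not overlap in any of the 4 populations, and the gap was widest in HSC (log2 1.10 ± 0.12 SE, adjusted p = 5.66e-10, and 0.66 with 0.000782 after subtraction), against 0.44 in MPP1, 0.29 in MPP2 and 0.38 in MPP4. The MPP4 call of Asxl2 ended without WT MPP4 replicate 1 or 2 or KO MPP4 replicate 3 (adjusted p of 0.0581 to 0.2). The interaction test called this variation as deposited (adjusted p = 0.000796) but not after subtraction (0.0788). Asxl1, the paralog mutated in myeloid neoplasms, was 224, 307 and 272 CPM in KO-labelled HSC and 169, 139 and 151 in WT HSC (log2 0.81 ± 0.13 SE), and this call ended after subtraction (adjusted p = 0.113). Bap1, the deubiquitinase itself, was called higher in HSC and MPP4 (log2 0.62 and 0.89), and neither call held after subtraction. The HSC call of Bap1 also ended without WT HSC replicate 1, KO HSC replicate 1 or KO HSC replicate 2 (adjusted p of 0.0916 to 0.105).

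In the MLL and COMPASS group, 8 of 10 genes were called higher in KO-labelled HSC (18.3% of all genes and 65.1% of the abundant ones), 5 in MPP1 (8.71% and 35.4%), 3 in MPP2 (3.73% and 13.1%) and 8 in MPP4 (11.4% and 42.9%) as deposited, though Kmt2a in HSC and Kmt2c in MPP4 changed sign under another scaling. After subtraction 3 were higher and 1 lower in HSC, 4 higher in MPP1 and 4 higher in MPP4. Setd1b, a SET1-type methyltransferase of lysine 4, had in MPP1 the largest called rise of any member. WT libraries held 260, 249 and 200 CPM in HSC, 147, 159 and 141 in MPP1, 276, 301 and 305 in MPP2 and 147, 177 and 121 in MPP4. KO-labelled libraries held 522, 475 and 505 CPM in HSC, 350, 422 and 341 in MPP1, 378, 348 and 340 in MPP2 and 314, 293 and 293 in MPP4. The genotypes did not overlap in any population, and WT MPP1 and WT MPP4 were lowest. The rise was 2.12-fold in HSC, 2.49-fold in MPP1 and 2.02-fold in MPP4 (log2 1.08, 1.32 and 1.01, SE 0.11 to 0.12, adjusted p = 3.06e-10, 1.09e-11 and 9.83e-09). It remained called after subtraction, at log2 0.56, 1.00 and 0.64, and in every alternative tried. In MPP2 the difference of 0.27 was not called (adjusted p = 0.143), and the interaction test gave an adjusted p of 1.98e-05, or 0.0144 after subtraction.

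Setd1a, the paralog of Setd1b, stood at 61, 73.5 and 50 CPM in WT HSC and at 166, 134 and 148 CPM in KO-labelled HSC. In MPP4 it stood at 37.7, 50.6 and 46.1 CPM in WT and at 91.1, 101 and 68 CPM in KO-labelled libraries. Neither pair of groups overlapped. The rise was 2.42-fold in HSC (log2 1.28 ± 0.17 SE, adjusted p = 1.18e-07) and 1.94-fold in MPP4 (log2 0.95 ± 0.18 SE, adjusted p = 0.000103), and both were called after subtraction (0.82 and 0.65). In MPP1 and MPP2 the values of 0.45 and 0.43 were not called (adjusted p = 0.0804 and 0.123), although the libraries did not overlap there either.

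Kmt2a, the enzyme rearranged in MLL leukemias, was called in opposite directions in HSC under different scalings. WT libraries held 899, 906 and 902 CPM in HSC, 614, 622 and 561 in MPP1, 796, 875 and 817 in MPP2 and 514, 488 and 435 in MPP4. KO-labelled libraries held 1035, 1099 and 1088 CPM in HSC, 851, 921 and 917 in MPP1, 803, 714 and 848 in MPP2 and 701, 728 and 752 in MPP4. The genotypes separated in HSC, MPP1 and MPP4 as deposited and overlapped in MPP2. In HSC its log2 fold change was 0.25 ± 0.07 SE as deposited (adjusted p = 0.00628), -0.28 after subtraction (adjusted p = 0.0125) and -0.28 when scaled on the abundant genes. In MPP1 it was called higher both ways, at 0.58 and 0.25 (adjusted p = 1.34e-07 and 0.0294), and in MPP4 the value of 0.60 was called as deposited but not after subtraction (0.22, adjusted p = 0.0645). The interaction was called both ways (adjusted p = 4.48e-06 and 0.000637). WT MPP1 and WT MPP4 lay below WT HSC, with log2 fold changes of -0.59 and -0.91, and these calls held in every alternative tried.

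The count ratio of Setd1b to Kmt2a in the same library did not depend on scaling either. It was 0.22 to 0.29 in WT HSC and 0.43 to 0.50 in KO-labelled HSC, 0.24 to 0.26 and 0.37 to 0.46 in MPP1, 0.34 to 0.37 and 0.40 to 0.49 in MPP2, and 0.28 to 0.36 and 0.39 to 0.45 in MPP4. In each of the 4 populations the 3 KO-labelled libraries lay above the 3 WT ones (exact permutation test, two-sided, p = 0.1 each, the smallest possible, and 0.156 adjusted over 14 ratio tests). The pair was chosen after its values were seen.

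Kmt2d and Kmt2c both methylate lysine 4 at enhancers. Kmt2d stood in WT libraries at 469, 509 and 455 CPM in HSC, 332, 327 and 278 in MPP1, 648, 606 and 623 in MPP2 and 269, 284 and 297 in MPP4. The KO-labelled libraries had it at 812, 838 and 745 CPM in HSC, 504, 524 and 531 in MPP1, 552, 683 and 646 in MPP2 and 490, 443 and 440 in MPP4. It was called higher in HSC, MPP1 and MPP4 (log2 0.74, 0.74 and 0.69, SE 0.09), with no overlap in these 3 populations, and was at 0.00 in MPP2. The calls in MPP1 and MPP4 held after subtraction (0.41 and 0.31) and the one in HSC did not (0.21, adjusted p = 0.105).

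Kmt2c in WT libraries stood at 445, 454 and 458 CPM in HSC, 526, 495 and 484 in MPP1, 537, 575 and 599 in MPP2 and 384, 352 and 383 in MPP4. Its KO-labelled levels were 726, 686 and 736 CPM in HSC, 543, 524 and 563 in MPP1, 599, 628 and 518 in MPP2 and 479, 498 and 438 in MPP4. It was called higher in HSC and MPP4 as deposited (log2 0.66 and 0.34, SE 0.08, adjusted p = 1.67e-08 and 0.00263). After subtraction neither was called (0.22 and 0.02), and in MPP4 the sign turned when scaled on the abundant genes (-0.03). The interaction of Kmt2d was called both ways (adjusted p = 9.47e-06 and 0.0189), that of Kmt2c only as deposited (0.000227 and 0.110).

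Kmt2e, an MLL family protein with little methyltransferase activity of its own, was 1 of the 2 members called higher in all 4 populations as deposited, the other being Kmt2b. Kmt2e stood in WT libraries at 362, 359 and 340 CPM in HSC, 375, 359 and 317 in MPP1, 511, 433 and 510 in MPP2 and 280, 267 and 282 in MPP4. KO-labelled libraries showed 593, 607 and 646 CPM in HSC, 528, 502 and 527 in MPP1, 625, 641 and 589 in MPP2 and 491, 531 and 537 in MPP4. The genotypes did not overlap anywhere, with log2 fold changes of 0.80, 0.57, 0.35 and 0.91 (SE 0.08 to 0.09). After subtraction HSC and MPP4 stayed called (0.29 and 0.55, adjusted p = 0.0156 and 5.3e-05). Without WT MPP2 replicate 2 the Kmt2e call in MPP2 ended (adjusted p = 0.0913). The annotated span of Kmt2e overlaps that of Srpk2 on the other strand, and the strand setting of the counting is not given in the sources used here.

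Kmt2b, which methylates lysine 4 at promoters, stood in WT libraries at 176, 212 and 210 CPM in HSC, 200, 185 and 158 in MPP1, 271, 258 and 261 in MPP2 and 188, 173 and 136 in MPP4. In KO-labelled libraries it stood at 363, 339 and 351 CPM in HSC, 309, 318 and 319 in MPP1, 291, 386 and 334 in MPP2 and 231, 251 and 233 in MPP4. Its log2 fold changes were 0.82, 0.80, 0.36 and 0.52 (SE 0.12), again with no overlap, and only MPP1 stayed called after subtraction (0.48, adjusted p = 0.0102). The MPP2 call of Kmt2b (adjusted p = 0.046) ended in 5 of 6 fits that left out 1 library of that population, all but KO MPP2 replicate 1 (adjusted p of 0.0958 to 0.281). Wdr5, a core subunit shared by these complexes, stood in MPP2 at 44.6, 38.3 and 44 CPM in WT and at 75.3, 66.7 and 67.1 CPM in KO-labelled libraries (log2 0.72 ± 0.22 SE, adjusted p = 0.0354). It was the largest called rise of a member in that population, and leaving out any 1 of the 6 libraries ended the call. Wdr5 was also called higher in HSC and MPP4 (0.93 and 0.85), not after subtraction. Its average over the 4 populations (log2 0.75) was called higher in every alternative tried, subtraction included. Men1, which tethers MLL to chromatin, and the core subunit Ash2l had means of 24.3 and 46.0 CPM over the 24 libraries and were called in no single population. The average over populations called Men1 higher (log2 0.59 ± 0.20 SE, adjusted p = 0.0126, and 0.422 after subtraction).

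**Figure D5:**
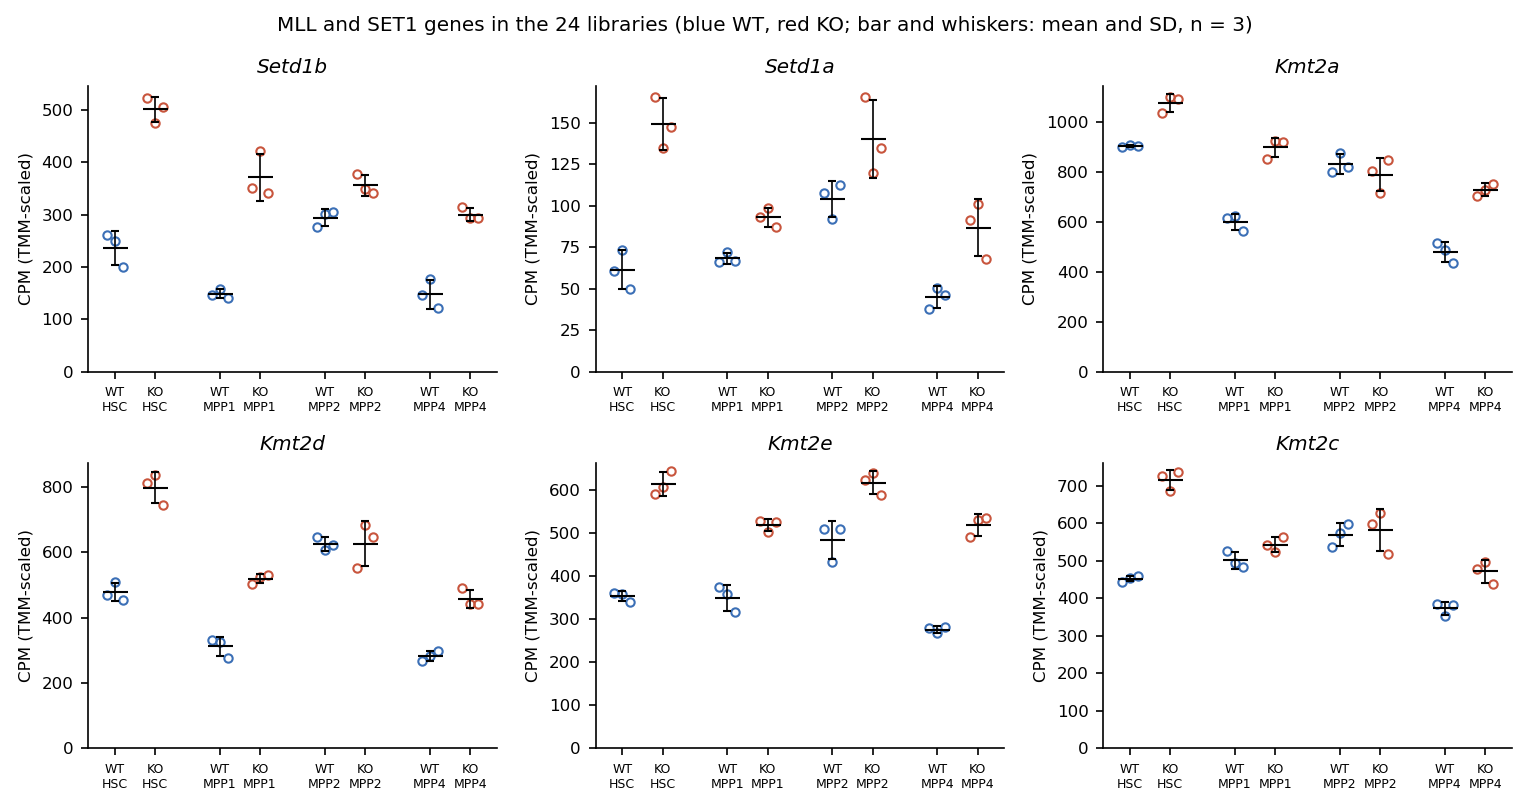
Levels in CPM (vertical axis, from 0) of 6 MLL and SET1 genes in the 24 libraries, WT in blue and KO-labelled in red, each point 1 library, with the mean and SD of 3. Setd1b and Kmt2e separate the genotypes in all 4 labelled populations, while Kmt2d separates them in 3 and overlaps in MPP2; the sign of Kmt2a in HSC turns after background subtraction.

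The 5 methyltransferases of lysine 36 and lysine 79 of histone H3 were all called higher in KO-labelled HSC as deposited (log2 0.41 to 0.87). There, 18.3% of all genes and 65.1% of the abundant ones were called higher. After subtraction their values of 0.13 (Nsd1), -0.0024 (Nsd2), 0.09 (Setd2), 0.05 (Ash1l) and 0.41 (Dot1l) were not called. The shares called higher were then 4.57% of all genes and 17.7% of the abundant ones. Nsd2, which dimethylates lysine 36, had its largest rise in MPP4. It stood there at 104, 97.7 and 102 CPM in WT and at 212, 173 and 178 CPM in KO-labelled libraries, 1.85-fold higher (log2 0.89 ± 0.14 SE, adjusted p = 7.06e-06, and 0.63 with 0.00519 after subtraction). In HSC, where the call ended without WT HSC replicate 1 (adjusted p = 0.105), it stood at 98.4, 113 and 131 CPM in WT and at 144, 156 and 156 CPM in KO-labelled libraries. In MPP1 it stood at 112, 119 and 98.6 and 122, 111 and 108 CPM, and in MPP2 at 157, 174 and 202 and 182, 195 and 143 CPM, in WT and KO-labelled libraries. The genotypes overlapped in MPP1 and MPP2, and the interaction was called both ways (adjusted p = 0.00157 and 0.0195). Its span overlaps that of Nelfa on the other strand.

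Nsd1, Setd2, Ash1l and Dot1l showed rises as deposited that subtraction took below the threshold in each population. Nsd1, another lysine 36 enzyme, was called higher in HSC, MPP1 and MPP4 (log2 0.62, 0.51 and 0.67, SE 0.10), and after subtraction 0.32 remained in MPP4 (adjusted p = 0.0532). The average of Nsd1 over the 4 populations (log2 0.49) was called higher in every alternative tried, subtraction included. Setd2, which places trimethyl lysine 36 along transcribed genes, was called in the same 3 populations (0.56, 0.57 and 0.39), and its MPP4 call ended without WT MPP4 replicate 2 (0.0523) or KO MPP4 replicate 3 (0.0564). Ash1l, a trithorax-type lysine 36 enzyme, was called there too (0.53, 0.43 and 0.36), and its sign in MPP4 turned when scaled on the abundant genes (-0.01). Dot1l, the lysine 79 enzyme that MLL fusion leukemias require, was called in HSC (0.87 ± 0.17 SE, adjusted p = 5.12e-05, and 0.154 after subtraction).

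Of the 3 enzymes of lysine 9, Ehmt1 and Ehmt2, which act as a pair, were both called as deposited. Ehmt1 was called higher in HSC, at 395, 412 and 342 CPM against 196, 213 and 235 CPM (log2 0.83 ± 0.10 SE, adjusted p = 1.91e-08, and 0.41 with 0.0107 after subtraction), and its interaction was called as deposited (0.00273) but not after subtraction (0.134). Ehmt2 stood in MPP1 at 37, 40.2 and 48.2 CPM in WT and at 58.2, 83 and 76.6 CPM in KO-labelled libraries (log2 0.80 ± 0.20 SE, adjusted p = 0.00503). It was also called higher in MPP4 (0.89 ± 0.21 SE) but not in HSC (0.34, adjusted p = 0.165), and its interaction was not called (adjusted p = 0.131). Neither Ehmt2 call held after subtraction (adjusted p = 0.177 and 0.110). Setdb1, which trimethylates lysine 9, was called higher in HSC as deposited (0.53, adjusted p = 0.0137), with -0.0050 when scaled on the abundant genes and no call without KO HSC replicate 3 (adjusted p = 0.0643).

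Of the 6 demethylases, 4 were called higher in KO-labelled HSC (18.3% of all genes and 65.1% of the abundant ones), 3 in MPP1 (8.71% and 35.4%), 0 in MPP2 (3.73% and 13.1%) and 3 in MPP4 (11.4% and 42.9%) as deposited, and 0 were called lower. After subtraction 1 call was left, that of Kdm2a in MPP1. Kdm2a, which removes methyl groups from lysine 36 at CpG islands, stood there at 183, 206 and 172 CPM in WT and at 350, 284 and 341 CPM in KO-labelled libraries (log2 0.79 ± 0.12 SE, adjusted p = 2.73e-06, and 0.52 with 0.00914). Its paralog Kdm2b, which brings a form of PRC1 to CpG islands, was called in HSC, MPP1 and MPP4 (0.67, 0.45 and 0.44, SE 0.13) and Kdm1a, a remover of lysine 4 methylation, in HSC and MPP4 (0.71 and 0.67, SE 0.21). Single libraries ended the Kdm2b calls in MPP1 (WT replicate 1 or 2 or KO replicate 2) and MPP4 (WT replicate 2 or KO replicate 1 or 2), and the Kdm1a calls in HSC (KO replicate 3) and MPP4 (WT replicate 2 or KO replicate 3), with adjusted p of 0.0533 to 0.251. Kdm5a, which removes trimethyl lysine 4, was called in HSC (0.50) with -0.03 when scaled on the abundant genes. Kdm6b, which removes the PRC2 mark, was called in MPP1 (0.62 ± 0.19 SE, adjusted p = 0.0245, and 0.0564 to 0.137 without WT MPP1 replicate 1 or 3 or KO MPP1 replicate 1 or 2), and its interaction was called as deposited only (0.0208 and 0.232). Kdm4a was called in no comparison.

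Across the WT populations, the members took different directions from HSC. WT MPP1 against WT HSC called 2 members higher and 4 lower, with 1.97% and 1.83% of all genes, and after subtraction 3 and 4, with 2.72% and 1.68%. WT MPP2 called 19 higher and 1 lower, with 11.7% and 7.37% of all genes, and after subtraction 4 and 2, with 6.24% and 4.14%. WT MPP4 called 3 higher and 10 lower, with 2.91% and 7.43% of all genes, and after subtraction 5 and 6, with 4.8% and 6.41%. Of the abundant genes, WT MPP1 called 7.96% higher and 7.96% lower, WT MPP2 44.7% and 13.2%, and WT MPP4 8.87% and 26.4%. After subtraction these shares were 9.97% and 6.44%, 21.8% and 11.5%, and 14.5% and 19.3%. Of the 39, 48.7% were called higher in WT MPP2 and 25.6% lower in WT MPP4, and of the 27 abundant members 70.4% and 33.3%. After subtraction the 27 gave 14.8% and 18.5%. Ezh2 and Suz12 were the 2 members called higher in all 3, before and after subtraction. Cbx7 was called lower in all 3 both ways, though its WT MPP1 call ended in every fit that left out 1 library. Kmt2a was called lower in all 3 after subtraction and when scaled on the abundant genes, but not as deposited. Its WT MPP2 value was -0.12 as deposited (adjusted p = 0.282), -0.45 after subtraction (5.82e-05) and -0.50 when scaled on the abundant genes (1.44e-06). Kmt2a, Kmt2d and Setd1b were called lower in WT MPP1 and WT MPP4 (Kmt2a -0.59 and -0.91, Kmt2d -0.61 and -0.76, Setd1b -0.67 and -0.67) and these calls held in every alternative tried. In WT MPP2, Kmt2d was called higher as deposited (0.39), which subtraction ended (0.06, adjusted p = 0.745), as it did for Setd1b (0.31 to -0.01). Kdm6b was called lower in WT MPP4 (-0.89 ± 0.20 SE, adjusted p = 0.000988, and 0.0171 after subtraction). These 3 comparisons share the WT HSC libraries with each other and with the comparison of genotypes in HSC.

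The interaction test, which asks whether the difference between genotypes varies with the population, called 16 of the 39 members, with 17.7% of all genes and 50.7% of the abundant ones. All 16 were among the 27 abundant members (59.3%). After subtraction it called 5 members, all abundant (18.5% of the 27), with 6.05% of all genes and 21.9% of the abundant ones, namely Ezh2, Kmt2a, Kmt2d, Setd1b and Nsd2. The same 5 were called in every alternative tried. They varied in different ways: the highest log2 fold change after subtraction was in HSC for Ezh2 (0.54), in MPP1 for Kmt2a (0.25), Kmt2d (0.41) and Setd1b (1.00), and in MPP4 for Nsd2 (0.63).

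The 3 KO-labelled libraries lay wholly above the 3 WT ones for 28 members in HSC, 19 in MPP1, 10 in MPP2 and 25 in MPP4, where 23.1%, 17.3%, 11.4% and 16.3% of all genes did. They lay wholly below for 1, 0, 3 and 0 members, where 30.8%, 17.8%, 13.8% and 15.4% of all genes did. Against WT HSC, 7 members lay wholly above and 7 wholly below in WT MPP1 (10.1% and 10.2% of all genes), 26 and 2 in WT MPP2 (19.8% and 19.6%) and 3 and 14 in WT MPP4 (11.7% and 14%). The spans of 25 of the 39 members overlap another annotated gene in GENCODE release M21, and 10 of them overlap a protein-coding one. These are Ash1l, Cbx7, Kdm1a, Kdm2b, Kdm5a, Kmt2e, Nsd2, Rnf2, Setd1a and Setdb1, whose counts may hold reads of the neighbour.

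Other genes of the same families were counted from lists that do not hold the members. Their counts in HSC stand beside 18.3% of all genes and 65.1% of the abundant ones called higher, and 24.8% and 10.2% called lower, as deposited, and beside 4.57% and 17.7% higher and 4.43% and 8.73% lower after subtraction. Of 28 tested further Polycomb genes, 16 were called higher and 2 lower in KO-labelled HSC, and 4 higher after subtraction. The corepressor Bcor, a subunit of a PRC1 form, was at 202, 189 and 169 CPM in WT HSC and at 380, 443 and 433 CPM in KO-labelled HSC (log2 1.17 ± 0.13 SE, and 0.76 after subtraction). Of 16 further MLL and COMPASS genes, 12 were called higher, and 3 after subtraction. Hcfc1, a cell cycle cofactor of the MLL and SET1 complexes, was at 464, 511 and 532 CPM in WT HSC and at 1276, 1223 and 1019 CPM in KO-labelled HSC (log2 1.22 ± 0.09 SE, and 0.69 after subtraction).

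Of 15 further lysine methyltransferases, 9 were called higher and 1 lower in HSC as deposited, and 4 of 14 higher after subtraction. Kmt5a, the lysine 20 enzyme of histone H4 that acts in the cell cycle, went from 82.8, 89.4 and 79.7 CPM in WT HSC to 237, 220 and 220 CPM in KO-labelled HSC (log2 1.42 ± 0.12 SE, and 0.94 after subtraction), with an interaction adjusted p of 1.08e-06 after subtraction. Like Ezh2, it was called higher than in WT HSC in all 3 WT progenitor groups (0.80, 1.40 and 0.97). Of 15 further demethylases, 9 were called higher in HSC, and 2 higher and 1 lower after subtraction. Kdm5c, which removes lysine 4 methylation, was called higher in all 4 populations as deposited (log2 1.17, 1.01, 0.91 and 0.84, SE 0.17) and after subtraction in HSC, MPP1 and MPP2 (0.75, 0.76 and 0.82) but not in MPP4 (0.56, adjusted p = 0.0824).

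Of 11 known targets of the Polycomb and MLL complexes in blood cells, 8 were tested. The Hox genes Hoxa7 and Hoxa9 and their cofactor Meis1 are described here, and they do not stand for the whole list. Hoxa7 stood in MPP1 at 39.7, 35.4 and 30 CPM in WT and at 102, 85.5 and 92.1 CPM in KO-labelled libraries (log2 1.41 ± 0.24 SE, and 1.11 with adjusted p = 0.00962 after subtraction). In MPP4 it stood at 7.77, 18.1 and 14 CPM in WT and at 44.9, 38 and 28.5 CPM in KO-labelled libraries (log2 1.48 ± 0.26 SE, and 1.20 with 0.0087). Hoxa9 rose in MPP1 and MPP4 as deposited (1.37 and 1.34), not after subtraction (adjusted p = 0.12 and 0.0708).

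Meis1 moved in both directions. It was called higher in KO-labelled HSC (log2 0.69 ± 0.06 SE), which subtraction ended (0.16, adjusted p = 0.117), and higher in MPP4 (0.60, and 0.22 with 0.0416). In MPP2 it was lower, at 736, 780 and 753 CPM in KO-labelled and 1196, 1179 and 1206 CPM in WT libraries (log2 -0.66 ± 0.06 SE, and -0.80 after subtraction). Its interaction was called both ways (adjusted p = 5.83e-16 and 6.45e-08). Hoxa9, Hoxa7 and Meis1 were all called lower in WT MPP4 than in WT HSC (-2.38, -1.53 and -1.15). Kmt2a was also lowest in WT MPP4 among the WT groups, and whether these falls are linked was not tested. Values of the other tested targets are not given here.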

How the data were processed

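RNA of 24 libraries (8 groups of 3) was sequenced after library preparation with the NEBNext Ultra II RNA kit. The deposited table holds whole-number counts per gene with no normalization. The submitters' processing notes name SAMtools 1.12, DESeq2 and the build mm39; the aligner, the counter and its strand setting are not given in the sources used here. Library totals of 2540511 to 3807003 counts set the precision, so that genes of a few CPM carry wide errors.

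From these counts, edgeR 4.0.16 (R 4.3.3) was fitted with filterByExpr, TMM scaling and 1 mean per group over all 24 libraries, which leaves 16 residual degrees of freedom. Quasi-likelihood tests were adjusted by Benjamini-Hochberg over 21964 genes, with calls at an adjusted p below 0.05. Fold changes carry the standard error (SE) of that fit. The background per kb of span was taken in each library from 2003 silent receptor genes and subtracted by gene span. Spans came from GENCODE M21 (GRCm38), matched by identifier to 91.9% of the genes, so 18612 genes were tested after subtraction. DESeq2 1.42.0, median-of-ratios scaling, other filters, the compared libraries alone, a replicate block and leaving out each library were alternatives. The procedure was tested on simulated data.

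Each library was taken as 1 replicate. The spread between libraries within each group exceeded counting noise (chi-square per gene of 4.19 to 9.72), which does not show whether they came from separate animals. The members and gene lists were chosen with earlier results of these data known. Values of every library were to be given for the PRC2 core genes, the 8 members with the smallest interaction p and, in each comparison of genotypes, the 3 called members with the largest rise and the 3 with the largest fall; of other lists, up to 4 genes with the smallest p could be named.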

Additional observations from a re-analysis of the deposited data

Results flagged for a closer look

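The difference between KO-labelled and WT libraries varied between the 4 populations, by the interaction test of edgeR, for 16 members as deposited. The adjusted p was 1.59e-06 for Ezh2, 4.48e-06 for Kmt2a, 9.47e-06 for Kmt2d and 1.98e-05 for Setd1b. It was 0.000227 for Kmt2c, 0.000796 for Asxl2, 0.00157 for Nsd2, 0.0022 for Kmt2e and 0.00273 for Ehmt1. It was 0.00501 for Asxl1, 0.00968 for Ash1l, 0.0182 for Setd1a, 0.0202 for Nsd1, 0.0208 for Kdm6b, 0.0223 for Suz12 and 0.0376 for Dot1l. Among all genes tested, 17.7% were called by the same test. After background subtraction the members called were Ezh2, Kmt2a, Kmt2d, Setd1b and Nsd2, and the background itself differed between populations and genotypes. Leaving out 1 library ended the interaction call of Dot1l in 8 fits, of Suz12 in 3 and of Setd1a, Nsd1 and Kdm6b in 2 each. Those libraries were of HSC (replicates 1 and 2 of both genotypes), MPP2 (WT replicates 1 and 3, KO replicate 1) and MPP4 (WT replicate 3) for Dot1l, with adjusted p of 0.0544 to 0.157. For Suz12 they were WT HSC replicate 3, WT MPP1 replicate 3 and KO HSC replicate 3, with 0.0536 to 0.0902. For Setd1a they were WT HSC replicate 3 and KO HSC replicate 1 (0.0616 and 0.0559), and for Nsd1 and Kdm6b they were WT MPP2 replicate 2 (0.0882 and 0.116) and KO MPP2 replicate 3 (0.0603 and 0.0738).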

How the results depend on the processing

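After subtraction of the background, the members called were 7 higher and 1 lower in HSC, 5 and 1 in MPP1, 0 higher in MPP2, 5 higher in MPP4, 9 higher and 1 lower on average, 5 by interaction, 4 higher and 2 lower in WT MPP2, and 5 and 6 in WT MPP4. Scaling on genes of at least 64 CPM, chosen after seeing the data, gave 7 higher and 4 lower in HSC, 6 and 2 in MPP1, 0 in MPP2, 8 in MPP4, 9 and 2 on average, 6 by interaction, 3 and 2 in WT MPP2, and 5 and 6 in WT MPP4. Median-of-ratios scaling called 13 higher in MPP4, 2 lower in WT MPP2 and 5 higher in WT MPP4. The compared libraries alone gave 1 lower in HSC, 13 higher in MPP4 and 2 lower in WT MPP2. With no filter 1 was higher in MPP2, and DESeq2 gave 2 lower in WT MPP2 and 5 higher in WT MPP4. In HSC, where the main fit called 25 members higher, median-of-ratios scaling called 20, DESeq2 21 and the compared libraries alone 19. The HSC calls of Bap1, Kmt2a, Nsd2 and Setdb1 ended in each of these. Smaller shifts in other counts are not listed. The cause of these shifts was not tested.

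Leaving out 1 library gave 23 to 25 members higher in HSC, 11 to 13 in MPP1, 0 to 2 in MPP2, 16 to 20 in MPP4, 28 to 30 on average and 14 to 18 by interaction. It gave 2 to 3 higher and 3 lower in WT MPP1, 15 to 19 higher and 1 lower in WT MPP2, and 2 to 3 higher and 9 to 10 lower in WT MPP4. The MPP2 count was 1 without WT MPP2 replicate 1, 0 without WT MPP2 replicate 2, 1 without WT MPP2 replicate 3 and 1 without KO MPP2 replicate 3.

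Sign changes are listed here only for members called in the main fit or in the alternative. Signs of members called in neither turned as well, such as that of Ezh2 in MPP4 (-0.21 when scaled on the abundant genes). Scaled on genes of at least 64 CPM, log2 signs turned in HSC for Jarid2 (-0.31), Kmt2a (-0.28), Nsd2 (-0.12), Setdb1 (-0.005) and Kdm5a (-0.034), and in MPP4 for Kmt2c (-0.030) and Ash1l (-0.0057). They turned on average for Ezh1 (-0.24), Ezh2 (-0.0043), Jarid2 (-0.24), Kmt2c (-0.041), Setdb1 (-0.093) and Kdm5a (-0.051), and in WT MPP2 for Kmt2c (-0.0445) and Setd1b (-0.065). After subtraction they turned for Kmt2a (-0.28) and Nsd2 (-0.0024) in HSC, for Setd1b (-0.0133) in WT MPP2, and on average for Ezh2 (-0.0016), Jarid2 (-0.24), Kmt2a (-0.0028), Kmt2c (-0.0102), Setdb1 (-0.075) and Kdm5a (-0.0032).

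Same-numbered libraries did not deviate together (correlations of -0.03 to 0.02, with 0 of 21 pairs over 0.1, and 7 of 21 best with their own number). A fit with the replicate number as a block called 26 members higher in HSC and 11 lower in WT MPP4, and left the other counts as they were. At this depth, members of a few CPM such as Cbx8 and Pcgf1 had standard errors of 1.07 and 0.86 on the log2 scale in HSC.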
